A study of Rattus norvegicus with 20 samples.

Results

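Liver RNA of rats fed 5,6-benzoflavone (BNF) was compared with liver RNA of rats fed oltipraz (OLT), a dithiolethione substituted with a methyl and a pyrazinyl group. The comparison used 10 of the 20 arrays of the study, chosen by their labels alone: 5 from BNF rats and 5 from OLT rats, 1 array per rat. All animals were female Sprague Dawley rats kept for 24 days on the same Harlan Teklad mash diet, given without an additive in the control group, with 1650 mg BNF per kg of diet in the BNF group and with 500 mg OLT per kg of diet in the OLT group. The remaining group ate D3T, the unsubstituted dithiolethione, at 600 mg per kg, and entered here through the filter on low values, the common estimate of the spread and the check of the arrays. The doses of BNF and OLT differed, so each difference below belongs to the compound at its dose. Ages are not given in the labels. Biotin-labelled RNA was read on 1-colour arrays, and every value below is a deposited log2 value in which a step of 1 is a 2-fold difference. Each diet had 5 replicate rats. The limma p-values set each difference against a spread between rats that was estimated over all 4 diets and moderated over probe sets.

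BNF binds and activates the aryl hydrocarbon receptor (AhR), a cytosolic protein that moves to the nucleus when bound, pairs with Arnt and switches on the Cyp1 cytochromes P450, the hallmark response of liver to polycyclic aromatic compounds. Dithiolethiones such as oltipraz are known to modify Keap1, which frees the transcription factor Nrf2 to act on antioxidant response elements of genes for glutathione transferases, quinone and aldehyde reductases, epoxide hydrolase and NADPH supply. The pathways meet at genes such as Nqo1, which carries both kinds of element, and oltipraz is also known to raise Cyp1a1 and Cyp1a2 in rat liver. The comparison therefore bears on what the inducers share and where they part.

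The 5 OLT arrays were less alike than the 5 BNF arrays: the median SD of a gene was 0.290 in OLT, 0.205 in BNF and 0.226 in the controls. The array labelled OLT 1 stood apart. Its mean correlation was 0.963 with its own group and 0.966 with the D3T group, and its closest array was D3T 2. The array labelled D3T 5 showed the mirror pattern, with a mean correlation of 0.979 with the OLT arrays and 0.968 with the other D3T arrays. D3T 5 enters no difference below but widens the common spread of genes on which OLT and D3T differ. Results are therefore given with and, where it matters, without OLT 1. OLT 5 also correlated less with its own group (0.965) than with the control (0.970) and BNF (0.968) arrays. The repeat without OLT 1 does not cover OLT 5. The label of liver was borne out by the 19 measured hepatocyte markers, such as Apoa1, Apoc3 and Ambp, whose mean level lay between 14.3 and 14.6 in every array of the control, BNF and OLT groups, while S100a8, the only measured neutrophil marker, ran from 3.56 to 5.20. RNA came from whole liver, so fewer cells of a type and less RNA per cell cannot be told apart.

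Of 31042 probe sets, 12947 exceeded a log2 value of 4 on 5 or more arrays and entered the tests, and 7837 genes were represented by their probe set of highest mean. Between the diets 1246 probe sets, 9.62% of those tested, were called at a Benjamini-Hochberg adjusted p under 0.05 in limma. By gene, 916 were called (11.7%), 502 higher in BNF (6.41%) and 414 higher in OLT (5.28%). A difference of at least 2-fold was called for 346 genes (4.41%), 245 of them higher in BNF (3.13%) and 101 higher in OLT (1.29%). Arrays of the diets did not overlap in 777 genes (9.91%). Without OLT 1 the call fell on 724 genes (9.24%), 382 higher (4.87%) and 342 lower (4.36%) in BNF. Called the same way with and without OLT 1 were 669 genes, and none was called in opposite directions. The split of the calls depended on scaling: with arrays centred on their medians, which moved the median of all genes by -0.10, 504 genes were higher and 739 lower in BNF. Leaving out OLT 3 also turned the balance, to 382 higher and 526 lower, and leaving out BNF 1 left 577 genes called. Without OLT 5 the calls grew to 1132 genes, 724 higher and 408 lower in BNF.

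**Figure D1:**
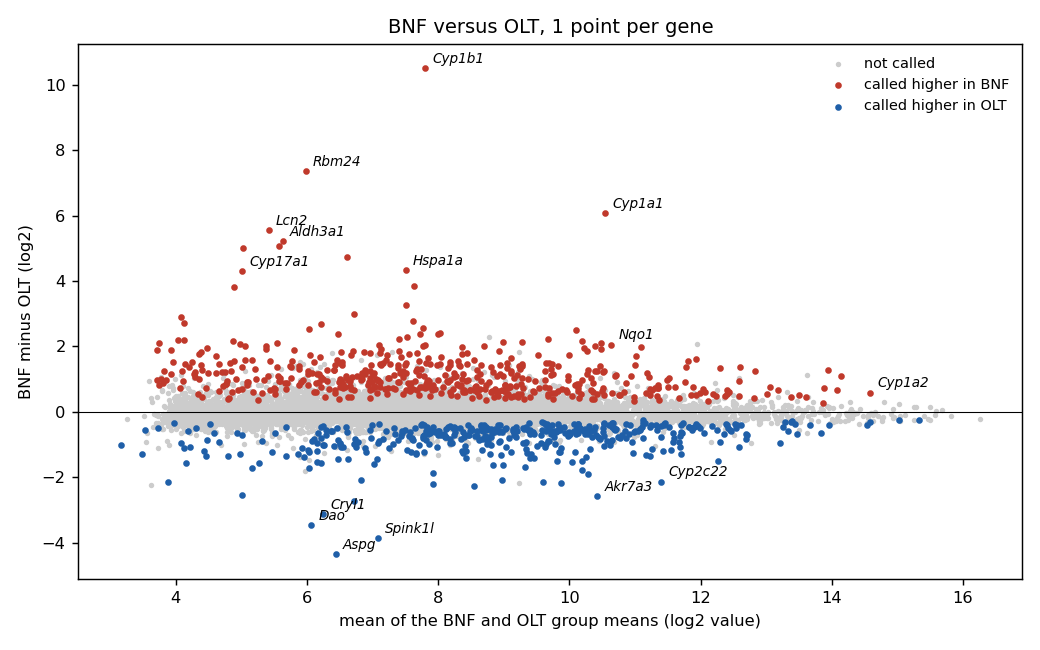
Difference between the BNF and OLT group means (log2) of each of 7837 genes against the mean of both group means (log2). Called genes are coloured by direction, with 502 higher in BNF and 414 higher in OLT; the largest difference was 10.51 for Cyp1b1 and the lowest -4.36 for Aspg.

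Against control, BNF called 327 genes (4.17%), 139 higher (1.77%) and 188 lower (2.4%). OLT called 588 genes (7.5%), 151 higher (1.93%) and 437 lower (5.58%), and 389 genes (4.96%) without OLT 1, of which 96 (1.22%) were higher. Scaling moved these splits too: with arrays centred on their medians BNF had 209 genes higher and 148 lower than control, and OLT 461 and 337, while a further quantile normalization gave 231 and 186 for BNF and 373 and 440 for OLT. These comparisons share the control arrays, and they are used below only to show which diet left the control level. Over all genes the median difference between BNF and OLT was -0.008.

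AhR targets were higher in BNF. Of 9 measured AhR targets, 8 were higher in BNF than in OLT and none lower, with a median difference of 2.37. Members of this and all later lists were chosen with earlier results of these data known, so the counts describe them and test nothing. Each list count stands beside 6.41% of all genes higher and 5.28% lower in BNF. Of the same 9 genes, 7 rose in BNF over control and none was called in OLT with all arrays fitted. Cyp1b1 and Aldh3a1 reached the filter only through the BNF arrays, as did 9 of all 7837 genes, so that their difference was a condition of being measured. The count fell to 6 of 9 without OLT 1, when Cyp1a2 and Tiparp were no longer called.

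Cyp1a1, the AhR-induced P450 that oxidizes polycyclic aromatic hydrocarbons, read 3.99, 5.61, 4.37, 5.76 and 6.59 in the control rats. In BNF rats 1 to 5 it read 13.50, 13.77, 13.55, 13.50 and 13.62, a spread of SD 0.12 around a mean of 13.59. In OLT rats 1 to 5 it read 3.97, 6.004, 9.97, 10.28 and 7.32. Every BNF array lay above every OLT array, while OLT 1 lay just under and OLT 2 within the control range, and OLT 3, OLT 4 and OLT 5 lay above it. The difference between the diets was 6.08 (SE 1.01, adjusted p = 0.00081), a 67.6-fold higher level in BNF, and 5.19 (SE 0.90, adjusted p = 0.0018) without OLT 1. The fold includes OLT 1, at 3.97 just under the background level of 4. BNF rose over control by 8.33 (SE 1.01, adjusted p = 6.4e-05). OLT was 2.25 (SE 1.01, adjusted p = 0.19) from control and not called, and 3.13 without OLT 1 (adjusted p = 0.059). The call for OLT over control was made once D3T 5 was left out as well (adjusted p = 0.020). An exact two-sided permutation test of OLT against control gave p = 0.143 (5 against 5 arrays), 0.2 after Benjamini-Hochberg adjustment over 42 such tests. Cyp1a1 thus lay above every control array in 3 of 5 OLT rats and was not called over the group.

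Cyp1a2, the constitutive hepatic member of the family, was already at 13.59, 13.97, 14.13, 13.76 and 13.95 in the control rats. It read 14.72, 15.20, 14.75, 14.78 and 14.91 in BNF rats 1 to 5 and 13.84, 14.32, 14.59, 14.42 and 14.27 in OLT rats 1 to 5. All BNF arrays lay above all OLT arrays, and 4 of 5 OLT arrays above all controls, OLT 1 being the exception. BNF rose by 0.99 (SE 0.18, adjusted p = 0.0041) over control, and the difference between the diets was 0.58 (SE 0.18, adjusted p = 0.0498). That call lay at the threshold and was lost under 13 of 21 alternatives, among them leaving out OLT 1, with 0.47 (SE 0.18, adjusted p = 0.14). OLT minus control was 0.41 (SE 0.18, adjusted p = 0.19), and 0.52 without OLT 1 (adjusted p = 0.12), which was called without OLT 1 and D3T 5 (adjusted p = 0.011). For Cyp1a2 the step from OLT to BNF was thus 1.50-fold, against 67.6-fold for Cyp1a1.

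Cyp1b1, the family member that hydroxylates estradiol and is nearly silent in resting liver, parted the diets altogether. It ran from 2.45 to 2.51 in the controls and from 2.42 to 2.79 in OLT, all under the background level of 4, and read 13.19, 13.45, 12.88, 12.79 and 12.95 in BNF rats 1 to 5. The difference was 10.51 (SE 0.11, adjusted p = 7.4e-23). OLT 3 and OLT 4, the arrays with the most Cyp1a1 in that group, read 2.53 and 2.47 for Cyp1b1, at the control level. Aldh3a1, an aldehyde dehydrogenase of the AhR battery, read 9.50, 8.99, 7.28, 7.85 and 7.58 in BNF against 2.94 to 3.17 in OLT, a difference of 5.22 (SE 0.29, adjusted p = 4.2e-10). Because the OLT values of both genes sit at background, these differences depend on the level that GCRMA leaves there.

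The 250 bases upstream of the Cyp1b1 start site are shown because Cyp1b1 was the gene with the largest difference, next to Akr7a3, the reductase that went the other way, and Gstp1, which both diets brought above every control array. All are from the RefSeq assembly GRCr8, written 5′ to 3′ on the gene's strand. Capitals mark the AhR response element core GCGTG, or its reverse complement where the core lies on the opposite strand, and, in Gstp1, the antioxidant response element core TGACNNNGC.
Cyp1b1, chr6:21094315-21094564, plus strand: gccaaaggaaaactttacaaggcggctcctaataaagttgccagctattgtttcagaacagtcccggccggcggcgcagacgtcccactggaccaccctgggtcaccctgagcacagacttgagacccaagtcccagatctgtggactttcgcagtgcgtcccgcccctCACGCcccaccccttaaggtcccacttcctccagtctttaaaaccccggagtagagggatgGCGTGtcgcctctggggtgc
Akr7a3, chr5:156876471-156876720, plus strand: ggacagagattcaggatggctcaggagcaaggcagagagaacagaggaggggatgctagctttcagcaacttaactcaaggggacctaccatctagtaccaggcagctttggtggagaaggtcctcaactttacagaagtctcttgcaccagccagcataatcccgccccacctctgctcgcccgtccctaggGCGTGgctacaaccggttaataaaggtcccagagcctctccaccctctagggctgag
Gstp1, chr1:210769706-210769955, minus strand: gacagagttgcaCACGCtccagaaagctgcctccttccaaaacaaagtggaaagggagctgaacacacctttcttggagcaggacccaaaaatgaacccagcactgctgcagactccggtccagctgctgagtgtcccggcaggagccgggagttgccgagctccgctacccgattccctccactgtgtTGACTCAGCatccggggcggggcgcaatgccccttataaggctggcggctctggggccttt
The Cyp1b1 window held GCGTG at 2 places, 81 to 77 and 20 to 16 bases before the start. The Akr7a3 window held 1, at 57 to 53, and the Gstp1 window 1, at 238 to 234, besides TGACTCAGC at 61 to 53. Searched on both strands, GCGTG occurred in 25.9% of 33469 windows of this length and TGACNNNGC in 10.1%. The Nqo1 window held 1 GCGTG, and the windows of Cyp1a2 and Akr1b8 held neither motif. A match describes these letters only.

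**Figure D2:**
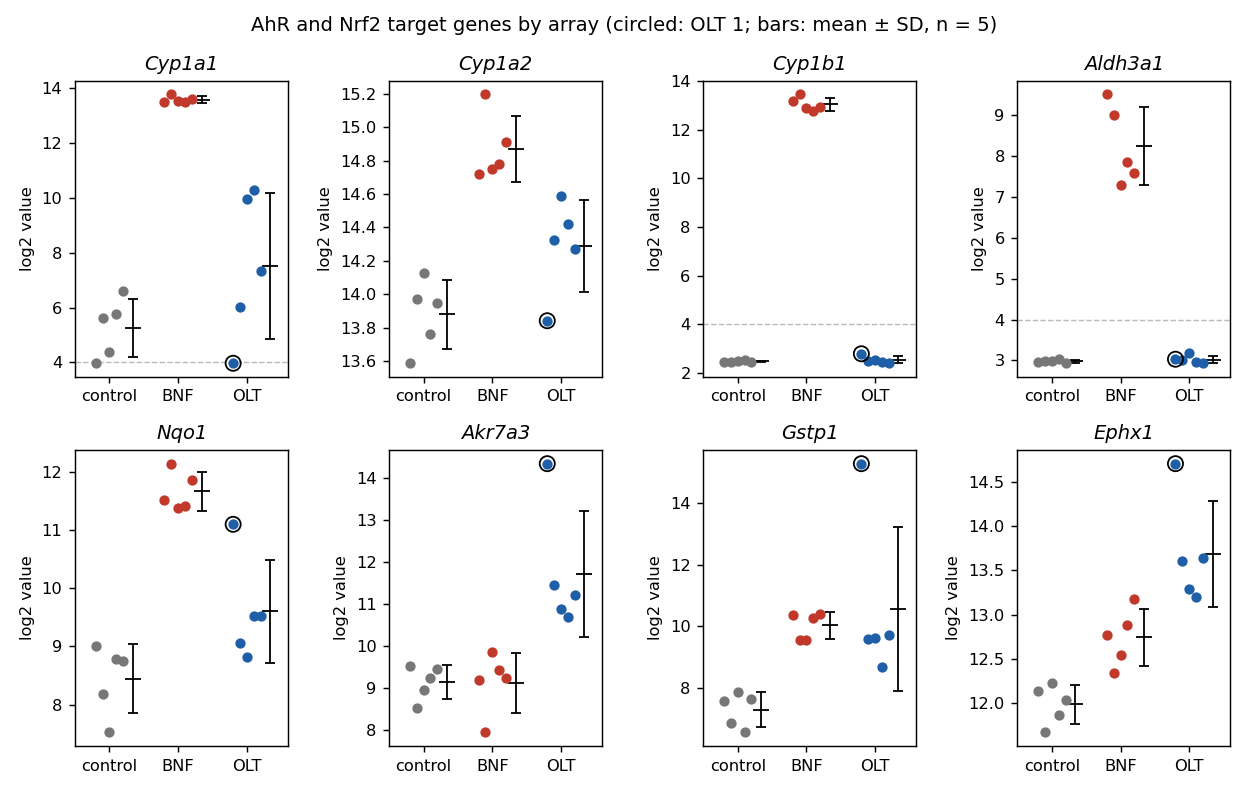
Deposited log2 values of 8 AhR and Nrf2 target genes in the 15 control, BNF and OLT arrays; points are rats, bars the mean ± SD of 5, the circled point OLT 1 and the dashed line the background level of 4. Cyp1a1 in OLT runs from 3.97 to 10.28, overlapping the control range and staying under every BNF array. Cyp1b1 in OLT stays between 2.42 and 2.79.

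Nqo1, the quinone reductase on which both pathways act, read 9.003, 8.18, 7.52, 8.78 and 8.74 in the controls, 11.52, 12.14, 11.37, 11.42 and 11.87 in BNF and 11.10, 9.07, 8.82, 9.53 and 9.52 in OLT. BNF was the higher diet by 2.06 (SE 0.38, adjusted p = 0.0018), and by 2.43 (SE 0.31, adjusted p = 0.00012) without OLT 1, the one OLT array that approached the BNF range. BNF rose over control by 3.22 (SE 0.38, adjusted p = 4.4e-05). OLT differed from control by 1.16 (SE 0.38, adjusted p = 0.072), not called. An exact permutation test gave p = 0.0159 (5 against 5 arrays), 0.0267 after adjustment over 42 tests only. Lcn2, a lipocalin that binds bacterial siderophores and counts here both as AhR target and as acute phase gene, read 7.72, 9.13, 7.96, 9.07 and 7.08 in BNF and 2.35 to 3.39 in OLT, a difference of 5.55 (SE 0.37, adjusted p = 9.5e-09). Tiparp, the AhR-induced ADP-ribosyltransferase that feeds back on the receptor, was higher in BNF by 2.37 (SE 0.70, adjusted p = 0.038). Its difference was 1.95 (SE 0.71, adjusted p = 0.11) without OLT 1. Tiparp was also the only one of 5 measured AhR pathway regulators to be called.

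Several genes outside the classical battery went with Cyp1b1. Rbm24, an RNA-binding protein best known from muscle splicing, read 10.19, 9.08, 9.83, 9.57 and 9.62 in BNF and 2.19 to 2.51 in OLT. It reached the filter only through BNF, so that its difference of 7.36 (SE 0.14, adjusted p = 2.2e-18) was a condition of being measured, and its OLT values, all under 4, allow no fold. Vxn, the neural gene vexin, differed by 5.07 (SE 0.28, adjusted p = 4.7e-10) and Scn4b, a sodium channel beta subunit, by 5.01 (SE 0.20, adjusted p = 2.8e-12). Mybl1, the transcription factor A-Myb, read 9.82, 9.01, 9.13, 8.60 and 8.34 in BNF against 4.10 to 4.69 in OLT, a difference of 4.74 (SE 0.22, adjusted p = 4.3e-11). Cox8b, the muscle form of a cytochrome oxidase subunit, differed by 3.82 (SE 0.20, adjusted p = 2.9e-10). None of these 5 genes was called between OLT and control. Scn4b and Cox8b also reached the filter only through BNF. Iars2, the mitochondrial isoleucyl-tRNA synthetase, was measured in every group, with 7.33, 6.85, 6.59, 5.96 and 7.06 in control, 9.71, 9.69, 8.43, 9.50 and 10.39 in BNF and 4.54, 6.29, 4.96, 5.68 and 7.05 in OLT. Its difference of 3.84 (SE 0.51, adjusted p = 9.4e-05) combined a called rise in BNF of 2.79 (SE 0.51, adjusted p = 0.0039) with an uncalled value in OLT of -1.05 (SE 0.51, adjusted p = 0.23).

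Nrf2 targets lay on the OLT side in most called cases. Of 31 measured, 6 were higher in OLT and 2, Nqo1 and Hmox1, higher in BNF, with a median difference of -0.35. Against control 9 rose and 1 fell in OLT, and 2 rose in BNF. Without OLT 1 the list gave 3 higher in OLT and 3 higher in BNF, with a median of -0.11, and 5 genes still rose over control in OLT. The mean of the list was highest in OLT 1, at 11.8, against 10.1 as the lowest OLT array and 10.1 to 10.5 in BNF.

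Akr7a3, the aflatoxin aldehyde reductase, whose promoter is printed above, read 9.53, 8.54, 8.95, 9.24 and 9.47 in control, 9.19, 7.95, 9.86, 9.43 and 9.24 in BNF and 14.33, 11.45, 10.87, 10.68 and 11.21 in OLT. Every OLT array lay above every BNF and control array, OLT 1 by far the highest. OLT was 5.96-fold above BNF, a difference of -2.58 (SE 0.61, adjusted p = 0.011), and the call held without OLT 1 at -1.92 (SE 0.48, adjusted p = 0.020). BNF did not leave control, with -0.01 (SE 0.61, adjusted p = 0.9991). Ephx1, the microsomal epoxide hydrolase, stood in order: 11.67 to 12.22 in control, 12.34 to 13.18 in BNF and 13.20 to 14.71 in OLT, with no overlap between neighbouring groups. The step from BNF to OLT was -0.94 (SE 0.24, adjusted p = 0.017), OLT rose over control by 1.70 (SE 0.24, adjusted p = 0.00032), and BNF differed from control by 0.76 (SE 0.24, adjusted p = 0.093), a value short of the threshold.

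Gstp1, the pi-class glutathione transferase that marks preneoplastic rat liver foci, was a gene at which both diets left the control range. It read 7.59, 6.88, 7.89, 6.57 and 7.64 in control, 10.39, 9.55, 9.58, 10.28 and 10.39 in BNF and 15.26, 9.58, 9.62, 8.68 and 9.72 in OLT. All BNF and all OLT arrays lay above all controls, OLT 2, OLT 3 and OLT 5 lay within the BNF range, OLT 4 under it and OLT 1 far above it. The difference between the diets was -0.53 (SE 1.01, adjusted p = 0.79), with an interval from -2.65 to 1.58, and 0.64 (SE 0.72, adjusted p = 0.67) without OLT 1. Neither diet was called over control in the fit of all arrays, in which the SD of Gstp1 was 2.66 in OLT and 2.12 in D3T. With only BNF and control fitted, the BNF rise of 2.72 was called (adjusted p = 0.00090). The OLT rise of 2.09 was called without OLT 1 and D3T 5 (adjusted p = 0.00037). Exact permutation tests gave p = 0.00794, the smallest that 5 against 5 arrays allow, for each diet against control (0.0139 adjusted over 42 tests only). Akr1b8, an aldo-keto reductase of the Nrf2 set, read 13.61, 5.55, 4.58, 6.20 and 4.46 in OLT against 4.09 to 6.39 in BNF. Its mean difference of -1.82 (SE 1.54, adjusted p = 0.49) rested on OLT 1, and was -0.13 without it. Gclc, the catalytic subunit of glutathione synthesis, was not called in any comparison, with -0.17 (SE 0.18, adjusted p = 0.60) between the diets and an interval from -0.55 to 0.22.

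Among 18 measured glutathione transferases 6 were higher in OLT and none in BNF, and the median was -0.35. Against control 7 rose in OLT and none in BNF. Without OLT 1, 3 remained higher in OLT. Gstt3, a theta-class transferase, read 11.90, 11.32, 12.21, 12.06 and 12.69 in BNF and 13.96, 12.70, 13.05, 12.92 and 12.96 in OLT, a difference of -1.08 (SE 0.24, adjusted p = 0.0070). Gstt1 differed by -1.18 (SE 0.32, adjusted p = 0.024) and Mgst3, a microsomal transferase, by -1.06 (SE 0.18, adjusted p = 0.00092), and both were called without OLT 1. None of the 16 measured xenobiotic transporters was called between the diets in limma, and 5 had an unadjusted p under 0.05, among them Slc22a5, the carnitine transporter, at 1.09 (SE 0.45, adjusted p = 0.15). None of the 6 measured cell cycle genes was called, and 0 had an unadjusted p under 0.05.

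Hmox1, the heme oxygenase often read as an Nrf2 target, went against the list. It read 7.85, 7.53, 9.003, 7.15 and 8.005 in control, 8.34, 8.57, 7.86, 7.96 and 7.71 in BNF and 7.09, 5.86, 5.19, 5.50 and 7.17 in OLT. OLT fell by 1.74 (SE 0.39, adjusted p = 0.011) from control, BNF differed from control by 0.18 (SE 0.39, adjusted p = 0.93), and the step between the diets was 1.93 (SE 0.39, adjusted p = 0.0040). Redox genes around glutathione held few calls, in both directions. Glrx, glutaredoxin, was higher in BNF by 1.23 (SE 0.13, adjusted p = 8.7e-06). Gpx1, a glutathione peroxidase, was lower, at -0.66 (SE 0.10, adjusted p = 0.00035), and Oplah, the oxoprolinase of glutathione turnover, by -0.59 (SE 0.14, adjusted p = 0.012). In the list of 23 such genes 1 was higher in BNF and 3 lower, beside 6.41% and 5.28% of all genes. Of 11 genes of NADPH supply 2 were lower in BNF: Tkt, transketolase, by -1.13 (SE 0.27, adjusted p = 0.012) and H6pd, the hexose-6-phosphate dehydrogenase of the endoplasmic reticulum, by -0.68 (SE 0.17, adjusted p = 0.016). In the list of 17 aldo-keto and carbonyl reductases 1 was higher in BNF and 4 lower, among them Dcxr, the L-xylulose reductase, at -0.79 (SE 0.13, adjusted p = 0.00081).

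Conjugating enzymes and other P450s held a few large differences. Sult1c3, a sulfotransferase, read 7.997, 8.54, 8.56, 8.74 and 9.52 in control, 9.21, 9.86, 7.78, 9.35 and 9.47 in BNF and 3.55, 7.27, 7.70, 5.95 and 4.93 in OLT. It fell by 2.79 (SE 0.70, adjusted p = 0.022) in OLT, not called without OLT 1, and was 9.55-fold higher in BNF. That fold includes OLT 1, at 3.55 under the background level of 4. Sult1c2 differed by 2.10 (SE 0.48, adjusted p = 0.0093). Ugdh, which makes UDP-glucuronic acid, was lower in BNF, at -0.73 (SE 0.23, adjusted p = 0.047), a call lost without OLT 1. Of 16 genes of glucuronidation and sulfation 2 were higher and 1 lower in BNF, beside 6.41% and 5.28% of all genes. Cyp2c22 read 10.59, 10.44, 9.65, 10.63 and 10.35 in BNF and 12.31, 12.67, 12.12, 12.71 and 12.56 in OLT, a difference of -2.14 (SE 0.21, adjusted p = 3.9e-06). BNF fell by 1.71 (SE 0.21, adjusted p = 8.8e-05) from control, and OLT minus control was 0.43 (SE 0.21, adjusted p = 0.25). Por, the reductase that passes electrons to every microsomal P450, was higher in BNF by 0.76 (SE 0.22, adjusted p = 0.032), while it fell by 1.14 (SE 0.22, adjusted p = 0.0041) in OLT from control. Cyp2j3, an arachidonate epoxygenase, was lower in BNF, at -0.71 (SE 0.16, adjusted p = 0.0067). Of 21 genes of this P450 list 2 were higher and 3 lower in BNF, beside the same shares of all genes.

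Aspg, an asparaginase, was the gene lowest in BNF relative to OLT. It read 9.18, 8.58, 7.90, 8.68 and 8.72 in control, 2.58, 4.79, 3.96, 5.17 and 4.76 in BNF and 8.91, 8.66, 8.41, 8.43 and 8.68 in OLT. BNF arrays ran from 2.58 to 5.17, close to background, and OLT did not leave control, with 0.00 (SE 0.34, adjusted p = 0.9953). The difference was -4.36 (SE 0.34, adjusted p = 8.5e-08). Dao, the peroxisomal D-amino acid oxidase, read 2.95, 2.88, 6.06, 4.27 and 5.49 in BNF against 8.34, 7.14, 7.26, 8.25 and 7.99 in OLT and 7.49, 6.64, 6.64, 6.83 and 7.91 in control. The BNF rats varied among themselves, with BNF 1 and BNF 2 at background and BNF 3 just under the controls, and the difference was -3.46 (SE 0.57, adjusted p = 0.00083). Gpt, alanine aminotransferase, was lower in BNF, at -1.37 (SE 0.26, adjusted p = 0.0029) and fell by 1.88 (SE 0.26, adjusted p = 0.00033) from control.

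These genes stood in a list of 49 for amino acid catabolism and the urea cycle. In it 16 were lower in BNF and 4 higher, with a median of -0.28, and without OLT 1 the counts were 16 and 1. Against control 12 fell in BNF and none rose, and 1 fell and 2 rose in OLT. Of 18 periportal hepatocyte markers 6 were lower and 3 higher in BNF, among them Hal, the histidine ammonia-lyase, at -1.30 (SE 0.25, adjusted p = 0.0031), and Cyp2f4 at -1.24 (SE 0.26, adjusted p = 0.0052). Of 17 pericentral markers 2 were higher, Cyp1a2 and Oat, the ornithine aminotransferase, at 0.77 (SE 0.23, adjusted p = 0.042), both lost without OLT 1. Psat1, the aminotransferase of serine synthesis, read 6.55, 4.31, 3.28, 3.92 and 6.73 in OLT and 2.40 to 3.20 in BNF. Its difference of -2.15 (SE 0.66, adjusted p = 0.046) was not called without OLT 1 (adjusted p = 0.13). Aldh1l1, the cytosolic formyltetrahydrofolate dehydrogenase, was lower in BNF, at -1.07 (SE 0.26, adjusted p = 0.014), and its mitochondrial relative Aldh1l2 was higher by 0.81 (SE 0.17, adjusted p = 0.0055). In the list of 10 genes of serine and one-carbon metabolism 1 was higher and 3 lower.

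Of 29 measured genes of fatty acid synthesis 14 were lower in BNF and none higher, with a median of -0.56, and 10 were lower without OLT 1. Against control 5 fell and 2 rose in BNF, and 4 rose in OLT. Srebf1, which encodes the transcription factor SREBP-1, read 10.14, 9.94, 9.93, 10.004 and 9.996 in control, 8.68, 9.06, 9.42, 9.72 and 9.62 in BNF and 11.18, 11.04, 11.04, 10.84 and 11.36 in OLT. Every BNF array lay below and every OLT array above the controls. BNF fell by 0.70 (SE 0.19, adjusted p = 0.044), OLT rose by 1.09 (SE 0.19, adjusted p = 0.0017), and the diets differed by -1.79 (SE 0.19, adjusted p = 7.2e-06). Fasn, fatty acid synthase, read 7.81, 9.32, 8.42, 9.41 and 8.99 in BNF and 12.19, 10.89, 10.66, 10.34 and 10.72 in OLT, a difference of -2.17 (SE 0.35, adjusted p = 0.00075). Scd, the stearoyl-CoA desaturase, differed by -1.90 (SE 0.57, adjusted p = 0.043), a call lost without OLT 1. Pklr, the liver pyruvate kinase, differed by -1.29 (SE 0.29, adjusted p = 0.0074), and Gckr, the glucokinase regulator, by -1.22 (SE 0.32, adjusted p = 0.021). Gys2, liver glycogen synthase, went the other way at 2.01 (SE 0.27, adjusted p = 0.00011). The list of glucose handling, which shares Pklr, had 6 of 17 lower and 1 higher in BNF.

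Cholesterol synthesis had 4 of 21 genes lower in BNF and none higher, with a median of -0.45, and 3 without OLT 1. Dhcr7, the last step of the pathway, read 8.51, 9.76, 9.16, 9.55 and 10.22 in BNF and 11.61, 10.71, 10.60, 10.84 and 11.02 in OLT and differed by -1.52 (SE 0.25, adjusted p = 0.00074). Insig1, which holds SREBP in the endoplasmic reticulum and counts in both lipid lists, differed by -1.50 (SE 0.33, adjusted p = 0.0075). Fdft1, squalene synthase, differed by -0.79 (SE 0.24, adjusted p = 0.039), a call lost without OLT 1.

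Of 33 genes of fatty acid oxidation 8 were higher and 2 lower in BNF, beside 6.41% and 5.28% of all genes. Under the alternatives 5 to 10 were higher. The median was -0.06, and its sign changed between settings. Both diets lay under control: 10 members fell in BNF and 13 in OLT, in comparisons that share the controls. Cpt1a, the carnitine palmitoyltransferase that admits fatty acids to mitochondria, read 12.17, 12.16, 12.30, 12.02 and 11.92 in control, 12.28, 11.57, 12.45, 11.79 and 12.31 in BNF and 9.61, 10.36, 10.33, 10.19 and 10.06 in OLT. It fell by 2.004 (SE 0.28, adjusted p = 0.00032) in OLT, stayed at -0.03 (SE 0.28, adjusted p = 0.99) from control in BNF, and differed by 1.97 (SE 0.28, adjusted p = 0.00021). Vnn1, the pantetheinase regulated by PPARα, read 8.68, 6.68, 8.58, 8.28 and 8.84 in BNF and 4.91, 4.65, 4.71, 6.54 and 5.25 in OLT and differed by 2.997 (SE 0.35, adjusted p = 2.6e-05). Angptl4, an inhibitor of lipoprotein lipase that is also a PPARα target, went the other way at -1.87 (SE 0.37, adjusted p = 0.0032).

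**Figure D3:**
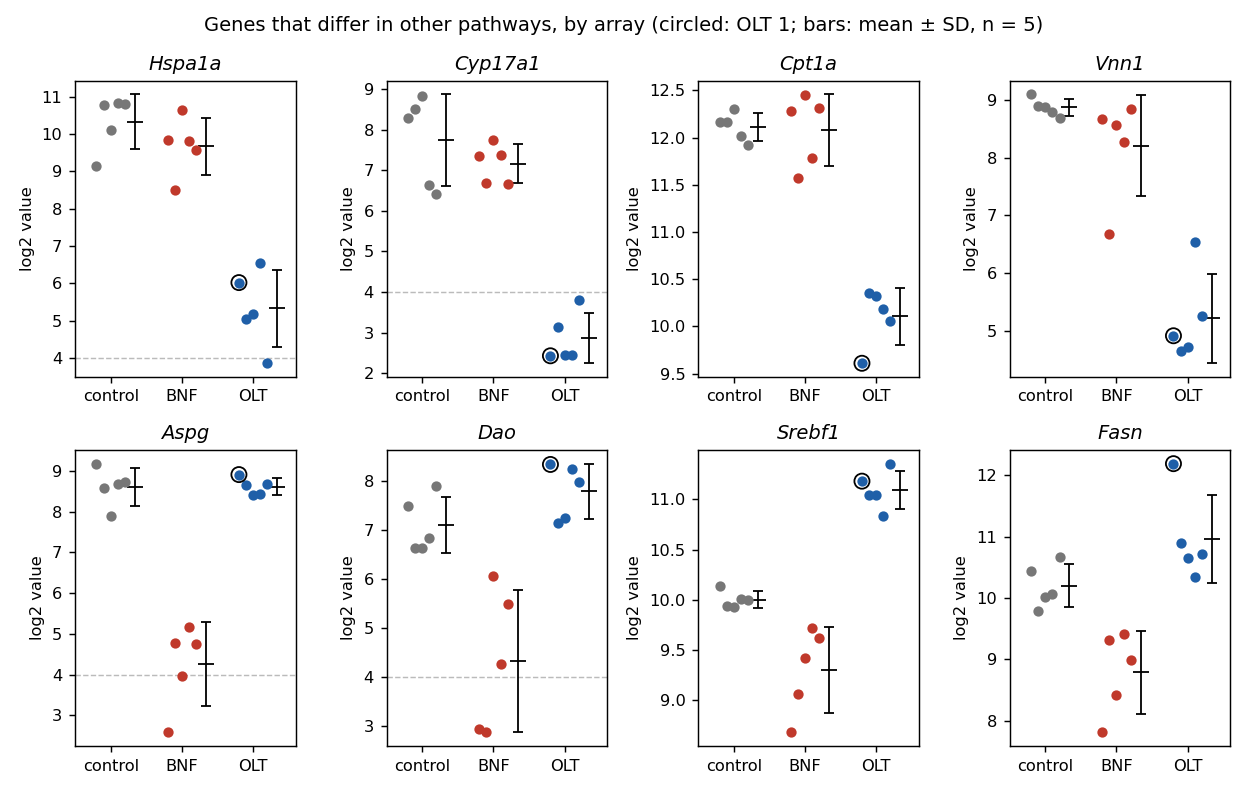
Deposited log2 values of 8 genes outside the xenobiotic batteries in the 15 control, BNF and OLT arrays; points are rats, bars the mean ± SD of 5, the circled point OLT 1 and the dashed line the background level of 4. Hspa1a, Cyp17a1, Cpt1a and Vnn1 are low in all 5 OLT arrays, and Aspg and Dao are low in all 5 BNF arrays.

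Of 18 measured heat shock chaperones, 5 were higher in BNF than in OLT and none lower, with and without OLT 1. Against control 7 fell in OLT and 1 in BNF. Hspa1a, the inducible Hsp70, whose probes may not separate it from its near-identical copy, read 9.14, 10.77, 10.10, 10.84 and 10.80 in control, 9.85, 8.51, 10.63, 9.80 and 9.58 in BNF and 6.02, 5.05, 5.18, 6.55 and 3.86 in OLT. All OLT arrays lay under all others. OLT fell by 4.99 (SE 0.56, adjusted p = 5.4e-05) from control, and BNF was 20.3-fold above OLT, a difference of 4.34 (SE 0.56, adjusted p = 7.7e-05). That fold includes OLT 5, at 3.86 under the background level of 4. The J-domain co-chaperones Dnajb4 and Dnajb1 differed by 1.995 (SE 0.26, adjusted p = 7.6e-05) and by 1.29 (SE 0.16, adjusted p = 3.5e-05). The median of the list was 0.12.

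The unfolded protein response had 4 of 23 genes higher and 2 lower in BNF, beside 6.41% and 5.28% of all genes, with a median of -0.09. Dnajb9, a co-chaperone of the endoplasmic reticulum, read 11.10, 11.09, 11.14, 11.40 and 11.26 in BNF and 10.40, 8.91, 8.37, 9.06 and 9.90 in OLT and differed by 1.87 (SE 0.36, adjusted p = 0.0030). Trib3, the pseudokinase downstream of ATF4, rose over control in BNF by 2.14 (SE 0.40, adjusted p = 0.0043) and differed from OLT by 2.56 (SE 0.40, adjusted p = 0.00047). Atf4 itself differed by 0.82 (SE 0.17, adjusted p = 0.0040). Without OLT 1 the counts were 5 higher and none lower. Proteasome subunits had 2 of 31 lower in BNF, a share near the 5.28% of all genes, Psmb3 at -0.49 (SE 0.13, adjusted p = 0.020) and Psmb5 at -0.44 (SE 0.11, adjusted p = 0.018). Respiratory chain subunits had 5 of 42 lower, among them Ndufb10 at -0.48 (SE 0.10, adjusted p = 0.0052), Atp5f1d at -0.47 (SE 0.13, adjusted p = 0.029) and Atp5po at -0.39 (SE 0.10, adjusted p = 0.015). Without OLT 1 the count was 3, and Atp5f1d was not called. The largest of these subunit differences, that of Psmb3, was 1.40-fold.

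Of 19 clock and output genes 3 were higher in BNF and none lower, with a median of 0.51. The period genes Per2 and Per1 read 7.63, 6.98, 8.69, 7.90 and 8.35 and 5.21, 4.68, 5.34, 4.63 and 5.41 in OLT, against 9.33 to 10.66 and 6.05 to 6.87 in BNF. Per2 differed by 2.14 (SE 0.51, adjusted p = 0.012) and Per1 by 1.39 (SE 0.32, adjusted p = 0.0093), and both fell in OLT from control, Per1 only with OLT 1 included. Bhlhe41, a repressor of the clock, differed by 2.18 (SE 0.54, adjusted p = 0.015) through a rise in BNF. Times of death are not given in the labels.

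Cyp17a1, the steroid 17-hydroxylase, read 8.30, 8.50, 8.84, 6.63 and 6.42 in control, 7.34, 6.68, 7.73, 7.38 and 6.66 in BNF and 2.43, 3.15, 2.46, 2.45 and 3.81 in OLT. Every OLT array lay under 4. OLT fell by 4.88 (SE 0.42, adjusted p = 5.3e-06), BNF differed from control by -0.58 (SE 0.42, adjusted p = 0.58), and the diets differed by 4.30 (SE 0.42, adjusted p = 2.5e-06). With OLT at background, no fold is given. Cish, a cytokine and growth hormone signal inhibitor, was higher in BNF by 2.28 (SE 0.57, adjusted p = 0.015), and Igfbp1, an insulin-repressed binding protein of IGF, was lower, at -2.09 (SE 0.51, adjusted p = 0.014). In the list of 16 steroid and sex-dependent genes 2 were higher and 2 lower.

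Bile acid genes had 2 of 19 higher and 2 lower in BNF, beside 6.41% and 5.28% of all genes. Nr0b2, the repressor SHP that damps bile acid synthesis, read 7.09, 6.34, 7.003, 7.001 and 6.60 in BNF and 9.71, 8.29, 8.65, 8.58 and 9.89 in OLT and differed by -2.22 (SE 0.44, adjusted p = 0.0034), through a rise in OLT of 1.94 (SE 0.44, adjusted p = 0.012). Cyp8b1, the sterol 12-hydroxylase, was higher in BNF by 1.24 (SE 0.22, adjusted p = 0.0017). Abcg5, which exports sterols together with Abcg8, was higher in BNF by 2.69 (SE 0.60, adjusted p = 0.0076). Cyp7a1, which starts the classical route to bile acids, was not called at -0.91 (SE 0.53, adjusted p = 0.29), and its interval ran from -2.02 to 0.20. Of 15 nuclear receptors 3 were lower and 1 higher in BNF, among them Nr1h4, the bile acid receptor FXR, at -0.60 (SE 0.17, adjusted p = 0.031), a call lost without OLT 1, and Thrb, a thyroid hormone receptor, at -0.85 (SE 0.15, adjusted p = 0.0012).

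Other genes among the largest differences on the OLT side had varied roles. Spink1l, annotated as like the trypsin inhibitor Spink1, read 4.63, 5.80, 4.46, 4.91 and 5.96 in BNF and 9.55, 6.76, 9.31, 10.07 and 9.36 in OLT, with 9.60, 10.62, 9.48, 10.07 and 11.43 in control, and differed by -3.86 (SE 0.62, adjusted p = 0.00068). Cpa1, a pancreatic carboxypeptidase and the only called one of 4 pancreas and gut markers, was also lower in BNF, at -1.72 (SE 0.51, adjusted p = 0.039). That call was lost without OLT 1, and the part of pancreatic tissue in these values was not tested. Cryl1, a lambda-crystallin related dehydrogenase, read 4.52, 4.49, 4.85, 4.85 and 4.66 in BNF and 10.69, 6.61, 6.74, 7.33 and 7.66 in OLT and differed by -3.13 (SE 0.72, adjusted p = 0.0096). Efna1, the ligand ephrin A1, rose in OLT by 2.67 (SE 0.36, adjusted p = 0.00026) and differed by -2.74 (SE 0.36, adjusted p = 8.6e-05). Rnf125, a ubiquitin ligase, rose in OLT by 2.21 (SE 0.36, adjusted p = 0.00100) and differed by -2.28 (SE 0.36, adjusted p = 0.00052). Tkfc, the triokinase of fructose breakdown, fell by 1.39 (SE 0.24, adjusted p = 0.0022) in BNF and differed by -2.15 (SE 0.24, adjusted p = 1.1e-05). Aldh1b1, a mitochondrial aldehyde dehydrogenase, differed by -2.55 (SE 0.39, adjusted p = 0.00044), and Aldh1a1, which oxidizes retinal, by -1.32 (SE 0.31, adjusted p = 0.011). Of 12 aldehyde dehydrogenases other than Aldh3a1, 4 were lower and 1 higher in BNF.

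Most markers of macrophages and Kupffer cells, the resident phagocytes of liver, were higher in BNF than in OLT. Of 24 measured, 20 were higher in BNF and none lower, with a median of 1.44, and 19 without OLT 1. The mean of the list ran from 7.24 to 7.87 in control, from 7.90 to 8.97 in BNF and from 6.54 to 8.05 in OLT, where OLT 5 alone lay above the control median of 7.54. The median difference from control was 0.96 in BNF and -0.47 in OLT, and few members passed: 4 rose in BNF, and 1, Cd163, fell in OLT, which was not called without OLT 1. Lgals3, galectin 3, read 9.74, 9.27, 8.59, 8.93 and 9.62 in BNF and 7.32, 7.31, 5.51, 6.21 and 7.79 in OLT and differed by 2.40 (SE 0.39, adjusted p = 0.00071). C1qb, a complement chain made by macrophages, differed by 1.87 (SE 0.42, adjusted p = 0.0083), and Cd163, the haemoglobin scavenger receptor, by 1.87 (SE 0.38, adjusted p = 0.0038).

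Cd74, the invariant chain of class II antigen presentation, read 10.36, 9.91, 11.12, 10.31 and 10.73 in control, 12.06, 12.28, 11.48, 11.74 and 11.78 in BNF and 9.94, 10.64, 9.95, 9.40 and 10.82 in OLT, and every BNF array lay above every other. It differed by 1.72 (SE 0.31, adjusted p = 0.0016), RT1-Da by 1.97 (SE 0.36, adjusted p = 0.0018) and RT1-Db1 by 2.16 (SE 0.36, adjusted p = 0.00077), and all 3 rose in BNF over control. They count among 9 measured lymphocyte and NK cell markers, of which 5 were higher in BNF and none lower. That list also holds the class II genes RT1-Ba and RT1-Bb. Its other measured members were Cd3e, Gzma, Ccl5 and Il2rb, while Cd3d, Cd4, Cd8a, Ms4a1, Ncr1 and others fell below the filter. The list thus rests in good part on class II genes, and its count does not show more lymphocytes or NK cells.

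Of 21 stellate cell and fibroblast markers 9 were higher in BNF and none lower, with a median of 0.82, and 8 without OLT 1. In BNF 9 rose over control, and in OLT none was called. Col1a1, a chain of type I collagen, read 5.97, 4.85, 6.84, 4.99 and 5.71 in control, 9.22, 7.29, 7.65, 7.84 and 8.59 in BNF and 6.49, 5.37, 5.71, 6.36 and 6.50 in OLT and differed by 2.03 (SE 0.38, adjusted p = 0.0024). Dcn, decorin, differed by 2.18 (SE 0.47, adjusted p = 0.0062) and Col5a2, a chain of type V collagen, by 1.28 (SE 0.28, adjusted p = 0.0065). Of 13 endothelial markers 1 was higher in BNF, Stab1, at 1.55 (SE 0.46, adjusted p = 0.040), not called without OLT 1, although the median was 0.99. Of 5 cholangiocyte markers 1 was higher, Aqp1, a water channel, at 1.90 (SE 0.43, adjusted p = 0.0087).

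Acute phase and complement genes had 8 of 29 higher in BNF and none lower, with a median of 0.14, and 4 without OLT 1. Il1r1, the interleukin-1 receptor, read 11.39, 12.05, 10.85, 11.31 and 11.17 in BNF and 8.07, 8.70, 8.78, 9.04 and 9.71 in OLT and differed by 2.50 (SE 0.43, adjusted p = 0.0011), through a BNF rise of 2.01 (SE 0.43, adjusted p = 0.011). Lbp, which binds lipopolysaccharide, differed by 0.97 (SE 0.24, adjusted p = 0.016). Red cell genes stood on the other side. The 4 erythrocyte markers rose in OLT over control, and 3 were called without OLT 1. Alas2, the erythroid aminolevulinate synthase, rose by 1.84 (SE 0.40, adjusted p = 0.0097) and Hba-a3, a globin chain whose probes may read its copies as well, by 1.49 (SE 0.35, adjusted p = 0.014). None of the 4 was called between BNF and OLT in the limma fit of all arrays, 4 had an unadjusted p under 0.05, and the median was -0.75. Under the alternatives up to 3 were called lower in BNF. The list mean ran from 9.82 to 10.8 in OLT, from 8.52 to 9.91 in BNF and from 8.16 to 9.51 in control. The part of cell composition and of blood content in the differences between the diets was not tested.

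**Figure D4:**
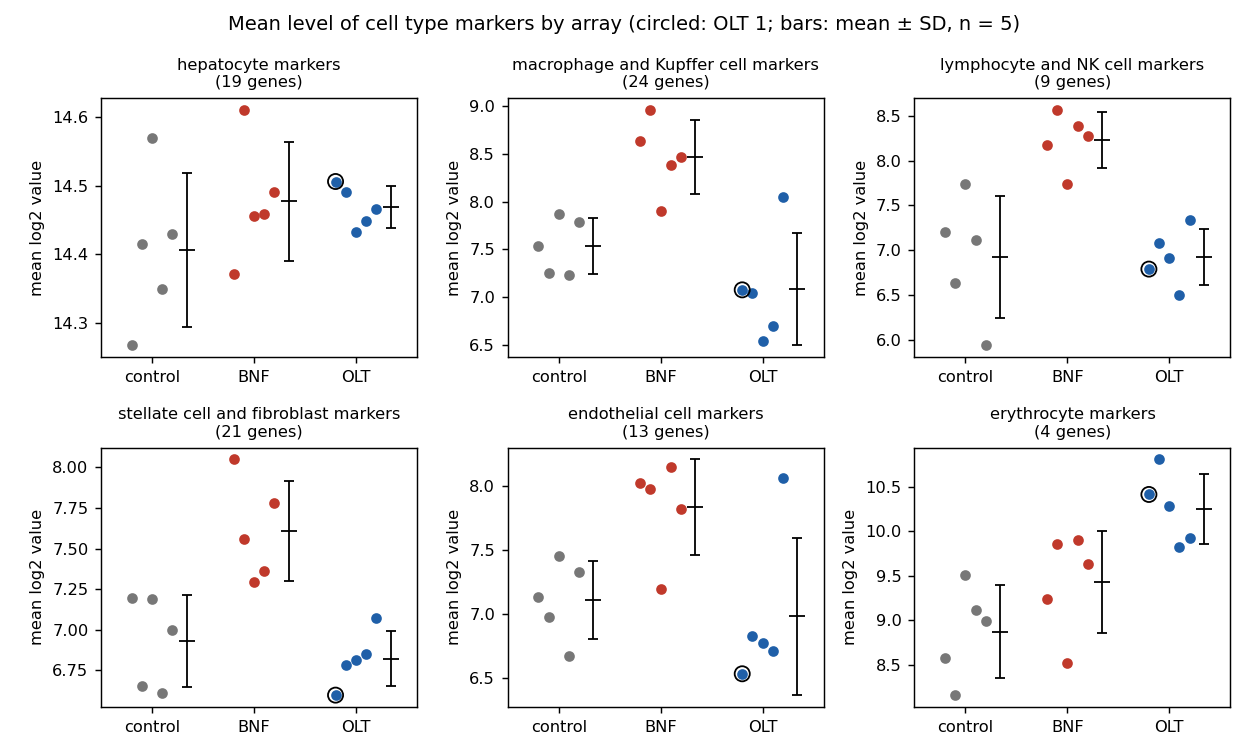
Mean log2 value of the measured markers of 6 cell types in each of the 15 control, BNF and OLT arrays; points are rats, bars the mean ± SD of 5 and the circled point OLT 1. Macrophage markers lie between 7.90 and 8.97 in BNF and at 8.05 or below in OLT, while hepatocyte markers stay between 14.3 and 14.6.

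**Figure D5:**
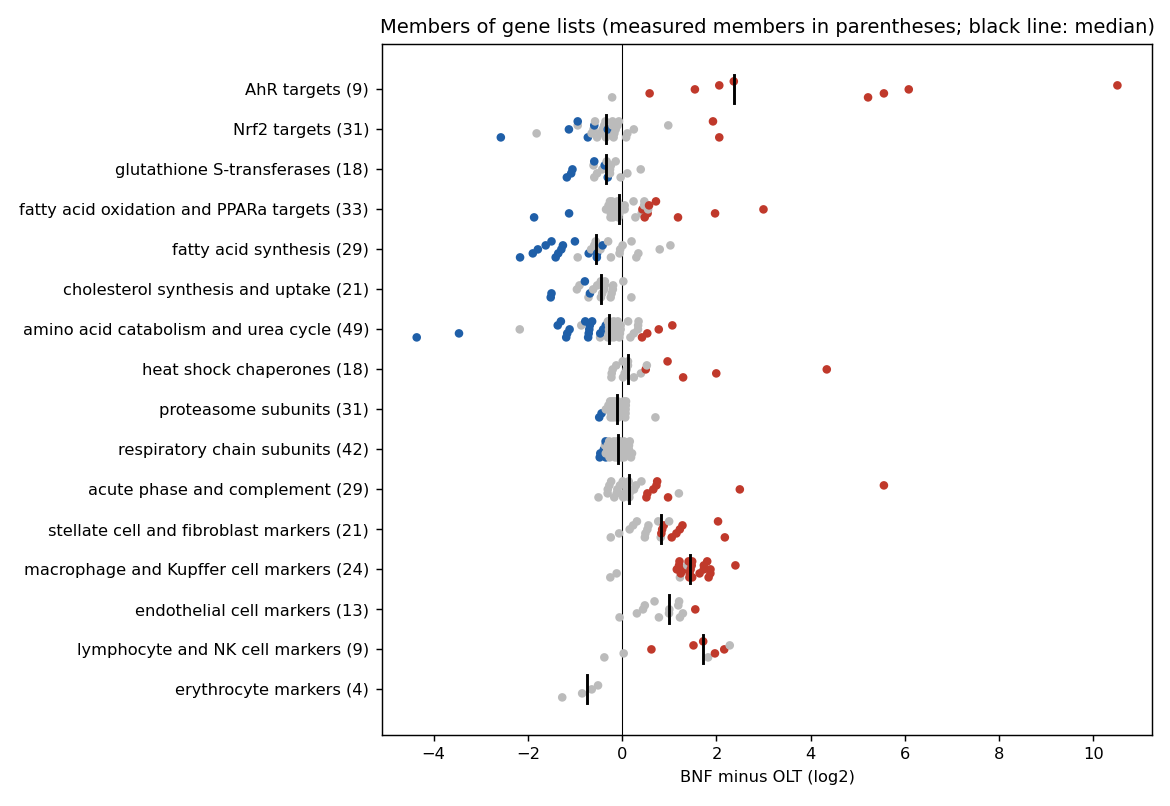
Difference between BNF and OLT (log2) of each measured member of 16 gene lists, with red points called higher in BNF, blue points called higher in OLT and grey points not called; the black line is the median of the list. Medians run from -0.75 for erythrocyte markers to 2.37 for AhR targets.

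Smaller lists gave single genes. Gadd45a, induced by growth arrest, differed by 2.38 (SE 0.23, adjusted p = 2.5e-06) and Phlda3, a p53 target, by -1.57 (SE 0.48, adjusted p = 0.047), in a list of 12 with 1 higher and 2 lower in BNF. Of 23 genes of metal, iron and heme handling 2 were higher and 2 lower in BNF, beside 6.41% and 5.28% of all genes. Among them were Ppox, a heme synthesis enzyme, at -1.12 (SE 0.31, adjusted p = 0.028), and Blvra, biliverdin reductase, at 0.73 (SE 0.18, adjusted p = 0.012). Apoa1, the apolipoprotein of high-density lipoprotein, was higher in BNF by 1.09 (SE 0.17, adjusted p = 0.00056), whereas Apoc3 at -0.41 (SE 0.11, adjusted p = 0.022) and Ambp at -0.24 (SE 0.07, adjusted p = 0.028) were lower, and both of these calls were lost without OLT 1.

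Some genes were called against control in the same direction under both diets and not called between them. The 6 with the largest rise were Anxa7, Nr1d1, Bco1, Entpd5, Cavin3 and Mettl7b. Mettl7b, a lipid droplet methyltransferase, read 10.59, 10.31, 9.89, 10.06 and 10.02 in control, 11.07, 10.95, 11.07, 11.06 and 11.07 in BNF and 11.11, 10.59, 10.86, 11.20 and 10.86 in OLT. It rose by 0.87 (SE 0.14, adjusted p = 0.00097) in BNF and by 0.75 (SE 0.14, adjusted p = 0.0025) in OLT, and the diets differed by 0.12 (SE 0.14, adjusted p = 0.62), with an interval from -0.16 to 0.40. Bco1, which cleaves beta-carotene, rose by 1.06 (SE 0.23, adjusted p = 0.012) in BNF and by 0.89 (SE 0.23, adjusted p = 0.025) in OLT. Nr1d1, the clock repressor Rev-erbα, rose by 1.51 (SE 0.27, adjusted p = 0.0038) in BNF and by 0.94 (SE 0.27, adjusted p = 0.047) in OLT, not called in OLT without OLT 1, and the same held for Anxa7.

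The 6 with the largest fall were LOC100910424, Hyls1, Prelid2, Acot4, Igf2bp3 and Hspb1. Acot4, a peroxisomal thioesterase, read 10.18, 10.26, 10.63, 10.14 and 10.20 in control, 8.80, 7.74, 9.38, 8.96 and 8.97 in BNF and 8.30, 9.07, 8.45, 9.61 and 8.82 in OLT. It fell by 1.51 (SE 0.27, adjusted p = 0.0029) in BNF and fell by 1.43 (SE 0.27, adjusted p = 0.0033) in OLT, and the diets differed by -0.08 (SE 0.27, adjusted p = 0.89), with an interval from -0.64 to 0.48. Hspb1, the small heat shock protein Hsp27, fell by 1.40 (SE 0.37, adjusted p = 0.042) in BNF and fell by 1.65 (SE 0.37, adjusted p = 0.011) in OLT, whereas the fall of Hspa1a was called in OLT and not in BNF. Igf2bp3, an RNA-binding protein, fell by 1.56 (SE 0.29, adjusted p = 0.0042) in BNF and fell by 1.42 (SE 0.29, adjusted p = 0.0060) in OLT. These rises and falls are read against the same 5 control arrays, and a missed threshold between the diets does not show equal levels.

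A few genes left control in opposite directions. Gadd45a read 7.78, 8.22, 8.13, 8.04 and 8.68 in control, 8.94, 8.97, 9.53, 9.41 and 9.07 in BNF and 6.33, 6.55, 6.31, 7.27 and 7.53 in OLT, so that neither diet overlapped control, with a BNF rise of 1.01 (SE 0.23, adjusted p = 0.018), and OLT fell by 1.37 (SE 0.23, adjusted p = 0.0014). Rhob, a small GTPase, rose in BNF by 1.06 (SE 0.21, adjusted p = 0.0068) and fell by 0.94 (SE 0.21, adjusted p = 0.010) in OLT, which put the diets 2.01 (SE 0.21, adjusted p = 6.6e-06) apart. Dpp7, a lysosomal dipeptidase, differed by 1.53 (SE 0.18, adjusted p = 2.3e-05) in the same orientation. Srebf1, given above, Hjv and Rbfa had the reverse orientation. Hjv, hemojuvelin, a co-receptor in the control of hepcidin, read 10.19, 10.31, 10.16, 9.90 and 10.30 in control, 9.26, 9.002, 8.92, 9.27 and 9.92 in BNF and 10.54, 10.86, 10.71, 11.15 and 10.79 in OLT and differed by -1.54 (SE 0.19, adjusted p = 3.8e-05). Rbfa, a mitochondrial ribosome factor, differed by -1.06 (SE 0.14, adjusted p = 0.00012). Without OLT 1 the OLT side of Dpp7, Hjv and Rbfa was no longer called, and all 6 differences between the diets were.

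Of the 129 genes named by the rules, 22 had further kept probe sets. The called ones had 19 of these, all of which differed in the same direction, and 15 were called themselves.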

How the data were processed

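Per the labels, biotin-labelled total RNA from livers of 20 rats was hybridized to 1-colour arrays. The deposited log2 values were made by the authors with GCRMA, per the submitters' processing notes, in 1 table for all arrays; the version is not given in the sources used here. Log2 is read from their range of 0.083 to 16.46, and they were used as given. The table carries no scan dates, so batches were not looked for, and the number of arrays limits the precision. Names came from the platform annotation, updated by gene identifier to RefSeq symbols: 20826 probe sets had 1 gene, 436 several and 9780 none, and only the first kind names a gene. Promoter windows came from the RefSeq table of GRCr8.

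Tests used limma 3.58.1 in R 4.3.3 (lmFit, then eBayes with an intensity trend). All 20 arrays were fitted together, with each diet's mean as a coefficient, and two-sided p-values were Benjamini-Hochberg adjusted over 12947 probe sets, with 95% intervals. On simulated data for BNF versus OLT with 12947 probe sets, 67 of 100 2-fold and 96 of 100 4-fold changes were recovered, and 9 of 172 calls were false. The simulated noise was normal, independent and of equal spread in every diet, without a deviating array. The real arrays differ in this, so these rates need not hold for them. Exact permutation tests of 14 genes in 3 comparisons were added after seeing the data. Replicate numbers entered only as an alternative, as no label pairs the rats. Other alternatives changed the scaling, filter, variance model and arrays.

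Genes were named by rule: 14 anchors; the 12 largest called, non-overlapping differences in each direction; up to 3 called members per list, or 2 where none was called; and the 6 largest shared and up to 6 opposed changes per direction against control. The members and the 41 lists were chosen with earlier results of these data known.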

Additional observations from a re-analysis of the deposited data

Results flagged for a closer look

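Of 258 groups of 5 arrays, the BNF and OLT groups of the named genes, 25 (9.69%) held 1 array whose gap to the others exceeded Dixon's critical value of 0.71 of the range, where chance gives about 1 in 20. OLT 1 was that array for 9 genes. It was high for Akr7a3 at 14.33 (others 10.68 to 11.45), Akr1b8 at 13.61 (others 4.46 to 6.20), Gstp1 at 15.26 (others 8.68 to 9.72) and Gclc at 10.85 (others 9.78 to 10.07). It was also high for Cryl1 at 10.69 (others 6.61 to 7.66), Gstt1 at 10.88 (others 8.70 to 8.93), Gstt3 at 13.96 (others 12.70 to 13.05) and Ugdh at 13.10 (others 11.66 to 11.95), and low for Dpp7 at 5.20 (others 5.81 to 6.04).

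BNF 2 stood apart for 5 genes, Vnn1 at 6.68 (others 8.28 to 8.84), Dnajb1 at 10.31 (others 11.00 to 11.25), Lbp at 12.90 (others 11.57 to 11.92), S100a8 at 5.20 (others 3.59 to 3.78) and Mettl7b at 10.95 (others 11.06 to 11.07). BNF 5 stood apart for Phlda3 at 3.99 (others 3.14 to 3.31), Thrb at 10.81 (others 9.92 to 10.16) and Hspb1 at 5.37 (others 5.64 to 5.73). OLT 3 was low for Cyp2j3 at 8.05 (others 8.64 to 8.82) and Ndufb10 at 10.52 (others 10.77 to 10.82), and OLT 5 was high for Lcn2 at 3.39 (others 2.35 to 2.49) and Mybl1 at 4.69 (others 4.10 to 4.20), both under every BNF array. Single genes had 1 such array each: Spink1l at 6.76 (others 9.31 to 10.07) in OLT 2, Dcn at 3.30 (others 3.80 to 3.96) in OLT 4, Cyp2c22 at 9.65 (others 10.35 to 10.63) in BNF 3 and Atp5f1d at 10.65 (others 10.90 to 10.96) in BNF 1.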

How the results depend on the processing

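Among the 106 named genes called between BNF and OLT, 81 kept the call under every alternative that tested them and 25 lost it under at least 1. There were 21 alternatives, of which 20 tested Sult1c2, Bhlhe41, Dcn and Aqp1. Of the 23 uncalled genes 6 were called under some alternative. No called value changed direction, and 31 sign changes, in 9 genes called neither way, were all of 0.64 or less in size. Between BNF and OLT, testing all probe sets left 596 genes, and array weights gave 2767 probe sets and 1863 genes. A fit of only those diets, with their own spread, called 902 probe sets and 633 genes. Leaving out 1 array gave 777 to 1675 probe sets and 577 to 1132 genes, lowest without BNF 1. For BNF against control, no filter left 207 genes and array weights gave 1480 probe sets and 1012 genes. Leaving out 1 array gave 263 to 478 probe sets and 198 to 350 genes, and the probe sets fell to 263 without BNF 1, 291 without BNF 2 and 297 without control 2. For OLT against control, no filter left 457 probe sets and 323 genes, array weights gave 2054 and 1356, and a fit of only those diets 382 and 263. Leaving out 1 array gave 523 to 1310 probe sets and 376 to 868 genes; the probe sets were 532 without OLT 1, 1310 without OLT 5, 523 without control 1, 524 without control 2 and 544 without control 5. No filter tests more probe sets; for the other moves the cause was not tested. Centring shifted the median of all genes by 0.17 for OLT against control. Deviations of arrays with the same replicate number correlated from -0.16 to 0.30 between BNF and OLT. In replicates 3 and 5 the same number was also the best match. The labels state no pairing. With the replicate number as a block, 1285 probe sets and 941 genes were called between the diets, 419 and 301 for BNF and 870 and 612 for OLT against control. Exact permutation tests added after seeing the data gave an adjusted p of 0.0139 for Gstp1 in both diets, Ephx1 in BNF and Akr1b8 in OLT and 0.0267 for Nqo1 in OLT, each against control and none called in limma. Signals under about 4 are background, which limits what can be read of genes silent in a diet.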
